A study of Mus musculus with 28 samples.

Results

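The Cyp4 fatty acid hydroxylases described here were 7 genes of mouse kidney, Cyp4a10, Cyp4a12a, Cyp4a12b, Cyp4a14, Cyp4a31, Cyp4a32 and Cyp4b1. They were taken by symbol from a count table of 56748 genes, where each symbol matched 1 Ensembl identifier, and all 7 passed the filter on low counts that left 17573 genes to test. The table held 28 kidney libraries in 6 groups: 3 groups of male kidneys (WT, Q and R) and 2 of female kidneys (WT and Q) with 5 libraries each, and female R kidneys with 3. WT mice carried the wild-type water and glycerol channel aquaporin-3 (Aqp3), Q mice an Aqp3 form that mimics the acetylated lysine, and R mice a form that mimics the deacetylated lysine. All mice were untreated, had free access to pelleted food and tap water under 12 h of light and 12 h of dark, and their kidneys were taken between 2 and 5 h of zeitgeber time. Strain and age were not given in the labels. Nothing in them says that the replicates of a group were different animals, so p-values measure the spread between these libraries, part of which may be technical. Whole kidney RNA was sequenced, so fewer cells of a type and less RNA per cell cannot be told apart in any value below.

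CYP4 enzymes are haem monooxygenases of the endoplasmic reticulum that add a hydroxyl group at the far (omega) end of fatty acids, with electrons passed on by NADPH-cytochrome P450 reductase (Por) and cytochrome b5. In the kidney, where they are found mainly in the proximal tubule and in small arteries, Cyp4a enzymes turn arachidonic acid into a hydroxylated product that acts on vessel tone and on tubular sodium transport, and Cyp4a12a is the mouse enzyme best known for this reaction and for its dependence on androgens. Cyp4a10 and Cyp4a14 are textbook targets of the fatty acid sensor PPAR-alpha, and Cyp4b1 is the family member known for hydroxylating shorter fatty acids and for activating certain plant and drug toxins.

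All 7 genes lie in 1 cluster on chromosome 4, in the order Cyp4a12a, Cyp4a12b, Cyp4a14, Cyp4a10, Cyp4a31, Cyp4a32 and Cyp4b1 in RefSeq's GRCm38.p6 annotation. Cyp4a14 and Cyp4b1 are on the minus strand and the other members on the plus strand. The sequences matter for reading the values, because several members are near-identical copies. Over their coding sequence (GENCODE M21 transcripts), Cyp4a12a and Cyp4a12b were 98.5% identical, with 23 mismatches in 1527 aligned bases. Cyp4a10 was 97.2% identical to Cyp4a32 and 96.6% to Cyp4a31, and Cyp4a31 was 96.0% identical to Cyp4a32. Cyp4a14 was at most 76.9% and Cyp4b1 at most 65.1% identical to any other member. Of all stretches of 100 bases in the transcript, 35.8% in Cyp4a12a, 36.2% in Cyp4a12b, 20.1% in Cyp4a32, 12.7% in Cyp4a10 and 8.22% in Cyp4a31 occurred unchanged in another member, and none in Cyp4a14 or Cyp4b1. The read length is not given, and these shares depend on it. For Cyp4a32 the share was 46.8% at 50 bases and 7.97% at 150. Reads that lie within such stretches have no unique gene of origin among the members. In this respect the levels of Cyp4a12a, Cyp4a12b, Cyp4a10, Cyp4a31 and Cyp4a32 are less certain than those of Cyp4a14 and Cyp4b1. Other genes and pseudogenes of the cluster, such as Cyp4b1-ps1 and the transcribed Cyp4b1-ps2, were not compared. Shown here are the windows of 60 coding bases with the most differing positions in each set. They run from bases 624 to 683 of the Cyp4a12 pair and 200 to 259 of the Cyp4a10, Cyp4a31 and Cyp4a32 set. Capitals mark the 4 and the 9 positions at which the copies of a set are not all alike. Most of the 9 set Cyp4a32 apart and few separate Cyp4a10 from Cyp4a31, which had 52 mismatches over their whole coding sequence. Most mismatches between copies lie outside these windows.
Cyp4a12a: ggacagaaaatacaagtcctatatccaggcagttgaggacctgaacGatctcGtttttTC
Cyp4a12b: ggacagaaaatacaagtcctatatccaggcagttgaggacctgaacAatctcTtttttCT
Cyp4a10: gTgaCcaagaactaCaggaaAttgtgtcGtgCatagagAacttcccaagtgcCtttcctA
Cyp4a31: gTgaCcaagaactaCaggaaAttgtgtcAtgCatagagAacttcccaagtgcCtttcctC
Cyp4a32: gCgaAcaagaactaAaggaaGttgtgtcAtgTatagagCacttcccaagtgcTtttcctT

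Total counts per library ranged from 14825417 to 21403804. Aqp3 itself had group means from 111 to 124 CPM (counts scaled to the same total in each library, by edgeR's TMM factors); the forms differ in sequence, and the level of the gene does not check the genotype labels. Female WT replicate 2 had 0.515 CPM of Xist, where the 12 remaining female libraries had 214 to 435 CPM, and 0.468 CPM summed over 4 Y-linked genes, against 121 to 164 CPM in males. Male Q replicate 4 and female Q replicate 5 had 7.74% and 3.94% of counts from mitochondrial genes, against 9.56% to 12.1% in the other 26. The counts of members called and the genotype differences named below are also given without these 3 libraries.

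The first question the design allows is how the members differed between the sexes. Male kidneys had more Cyp4b1, Cyp4a12a, Cyp4a12b and Cyp4a32 RNA than female kidneys, and less Cyp4a14 and Cyp4a10, while Cyp4a31 did not pass the test. Over the 3 genotypes, 4 of the 7 members were called higher and 2 lower in males (edgeR quasi-likelihood test, Benjamini-Hochberg adjusted p under 0.05 over the 17573 genes), where 40.2% of all tested genes were called, 18.9% higher and 21.3% lower. In each genotype alone, 4 members were called higher and 1 lower, where 16.5% of tested genes were called in WT (8.22% higher and 8.31% lower), 23.1% in Q (11.9% and 11.2%) and 14.1% in R (7.07% and 7.01%). The ranges of the 15 male and 13 female libraries did not overlap for 5 members, 4 of them higher and 1 lower in males, and such a gap was found for 5.14% of all tested genes (3.2% higher and 1.94% lower). Without the 3 libraries that stood apart, the same counts of 6 members over the 3 genotypes and 5 in each were called.

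Cyp4b1 was the most abundant member in males. The 5 male WT libraries had 3880, 3481, 2519, 4107 and 3435 CPM of Cyp4b1, the male Q libraries 3561, 3705, 3739, 2916 and 3672 CPM, and the male R libraries 3400, 3415, 3533, 3414 and 2838 CPM. The female WT libraries had 97.1, 201.9, 127, 128 and 124 CPM, the female Q libraries 139, 178, 189, 189 and 169 CPM, and the female R libraries 190.4, 193 and 121 CPM. Every male library was above every female library; the lowest male was WT replicate 3 and the highest female WT replicate 2. The log2 fold change of males against females over the 3 genotypes was 4.44 (SE 0.118, adjusted p = 1.6e-23, edgeR), a ratio of 21.8. It was 4.68 in WT, 4.35 in Q and 4.30 in R. Cyp4b1 also varied least within male groups, with a within-group SD of 0.19 on the log2 scale, against a median of 0.29 over all tested genes.

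Cyp4a12a showed the largest ratio between the sexes among the members. The male WT libraries had 106, 156, 39.7, 238 and 91.8 CPM of Cyp4a12a, the male Q libraries 147, 171, 204, 209 and 92.3 CPM, and the male R libraries 96.2, 132, 104, 121 and 84.8 CPM. The female WT libraries had 2.14, 4.17, 1.59, 2.05 and 1.35 CPM, the female Q libraries 1.08, 1.001, 1.51, 1.72 and 1.51 CPM, and the female R libraries 3.86, 2.15 and 1.90 CPM, which rest on 18 to 89 counts per library. The male and female values did not overlap, and the male WT group ran from the lowest to the highest male library. The log2 fold change of Cyp4a12a was 6.01 (SE 0.278, adjusted p = 3.7e-15, edgeR) over the 3 genotypes, and 5.79, 6.91 and 5.34 in WT, Q and R.

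Its near-copy Cyp4a12b had a smaller difference; per kb of the gene's joined exons its mean level was 6.21 CPM against 54.9 for Cyp4a12a in males, and 0.813 against 0.827 in females. The male WT libraries had 9.71, 28.6, 9.73, 12.9 and 15.7 CPM of Cyp4a12b, the male Q libraries 20.8, 9.53, 10.99, 11.2 and 9.65 CPM, and the male R libraries 14.3, 21.1, 12.8, 21.9 and 14.1 CPM, against 1.05 to 3.16 CPM in the 13 female libraries. Its log2 fold change was 2.89 (SE 0.205, adjusted p = 3.3e-12, edgeR). Within a library, Cyp4a12b made up a median of 12.4% (n = 15) of the counts of the pair in males and 52.6% (n = 13) in females, and the ranges, 5.08% to 19.7% and 34.0% to 67.7%, did not overlap. This share differed between the sexes with a two-sided permutation p of 2e-05, the smallest that the 100000 resamples can give (2e-05 after adjustment over 5 such ratios). The pair therefore shifted unequally, and with the counts of both genes summed the log2 fold change was 5.18 (SE 0.243, adjusted p = 3.6e-15, edgeR).

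Cyp4a32 had the lowest mean level of the members per kb of exons, at 4.89 CPM in males and 0.778 in females, the latter close to both Cyp4a12 genes. Its annotated exons cover 1536 bases, of which 1530 are coding, and 20.1% of its stretches of 100 bases occur in another member. The part of these in its rank was not tested. The male WT libraries had 12.5, 7.37, 5.37, 8.96 and 5.88 CPM of Cyp4a32, the male Q libraries 9.20, 5.68, 8.97, 3.17 and 10.7 CPM, and the male R libraries 9.18, 6.60, 4.58, 7.73 and 6.77 CPM. The 13 female libraries had 0.556 to 1.84 CPM, from 10 to 38 counts. The lowest male value, 3.17 CPM, was in Q replicate 4, one of the libraries low in mitochondrial counts, and it was still above the highest female value. For Cyp4a32 the log2 fold change was 2.63 (SE 0.204, adjusted p = 8.2e-12, edgeR). Cyp4a32 made up 1.27% ± 0.510 (SD, n = 15) of the summed counts of Cyp4a10, Cyp4a31 and Cyp4a32 in males and 0.167% ± 0.0513 (SD, n = 13) in females (permutation p = 2e-05, two-sided, the smallest possible here).

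**Figure D1:**
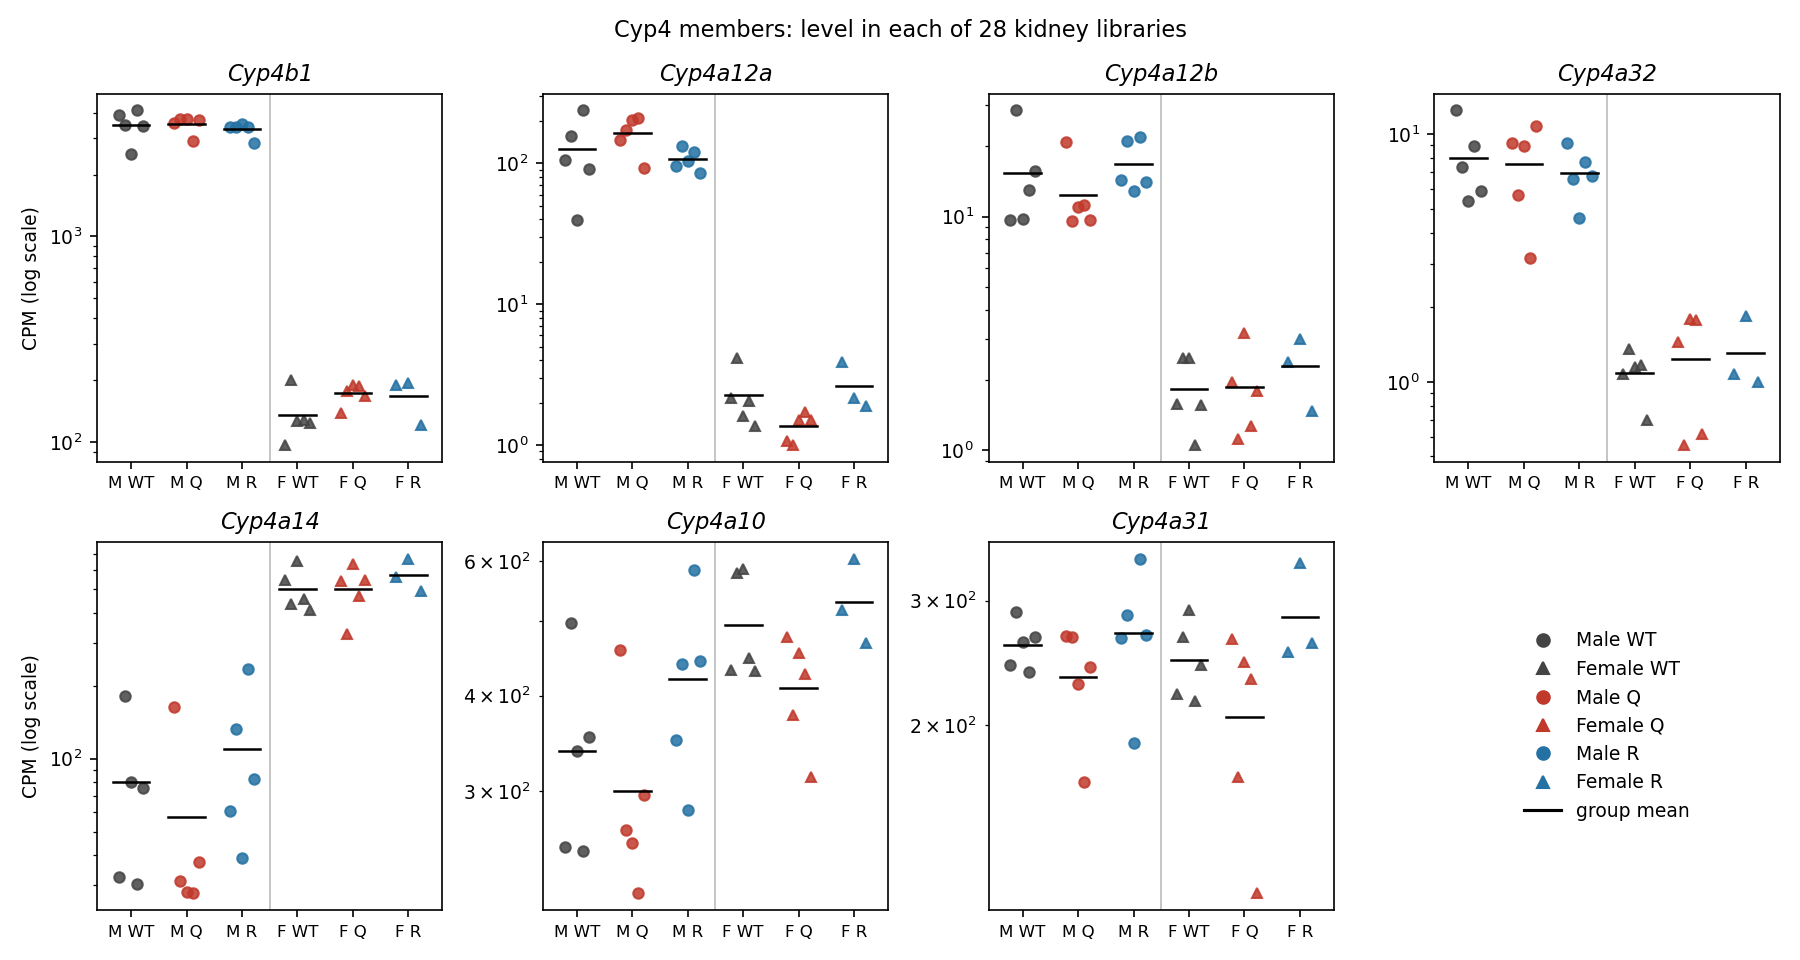
Level of each member in CPM (log scale) in each of the 28 libraries, with 1 panel per member, groups on the horizontal axis (M male, F female), circles for male and triangles for female libraries, and a black line at each group's mean. Cyp4b1, Cyp4a12a, Cyp4a12b and Cyp4a32 sit higher in every male library than in any female library, Cyp4a14 lower, and the sexes overlap for Cyp4a10 and Cyp4a31; the vertical scale differs between panels.

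Cyp4a14 ran the other way. The male WT libraries had 32.6, 182, 79.8, 30.5 and 75.9 CPM of Cyp4a14, the male Q libraries 164, 31.3, 28.1, 27.8 and 37.6 CPM, and the male R libraries 60.6, 132, 39.1, 235 and 82.7 CPM. The female WT libraries had 545, 435, 654, 454 and 411 CPM, the female Q libraries 543, 326, 636, 469 and 544 CPM, and the female R libraries 561, 668 and 494 CPM. Male R replicate 4, WT replicate 2, Q replicate 1 and R replicate 2 were the highest males, and none of them reached the lowest female library. The log2 fold change of males against females was -2.72 (SE 0.326, adjusted p = 3.7e-07, edgeR), that is, 6.57 times lower in males. The within-group SD of Cyp4a14 was 1.05 on the log2 scale in males, above that of 99.3% of tested genes, and 0.31 in females, above that of 63.2%. In Q alone the log2 fold change was -3.12, and -4.01 without male Q replicate 1.

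Cyp4a10, the PPAR-alpha target next to Cyp4a14, had a small difference in the same direction. Its mean level was 353 ± 108 CPM (SD, n = 15) in males, with a range of 221 to 583 CPM, and 470.3 ± 83.8 CPM (SD, n = 13) in females, with a range of 313 to 604 CPM, so the sexes overlapped. The log2 fold change over the 3 genotypes was -0.44 (SE 0.119, adjusted p = 0.0034, edgeR), and it missed the threshold in WT (-0.55, adjusted p = 0.055), in Q (-0.45, adjusted p = 0.0999) and in R (-0.34, adjusted p = 0.36). It was called in WT without male WT replicate 2 (-0.73, adjusted p = 0.0088) and in Q without male Q replicate 1 (-0.66, adjusted p = 0.011), the males with the most Cyp4a10 of their groups. With Cyp4a10, Cyp4a31 and Cyp4a32 summed, the log2 fold change was -0.24 (SE 0.103, adjusted p = 0.069, edgeR), which did not pass.

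Cyp4a31, the third copy of that set, had 255 ± 41.7 CPM (SD, n = 15) in males and 239.8 ± 54.7 CPM (SD, n = 13) in females. The lowest library of all was female Q replicate 5 with 116 CPM, and the lowest male was Q replicate 4 with 166 CPM, the 2 libraries low in mitochondrial counts; their part in these values was not tested. For Cyp4a31 the log2 fold change was 0.06 (SE 0.103, 95% interval -0.15 to 0.28, adjusted p = 0.67, edgeR). Within a library, the log2 ratio of Cyp4a31 to Cyp4a10 counts was -0.43 ± 0.274 (SD, n = 15) in males and -0.99 ± 0.175 (SD, n = 13) in females (permutation p = 2e-05, two-sided).

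**Figure D2:**
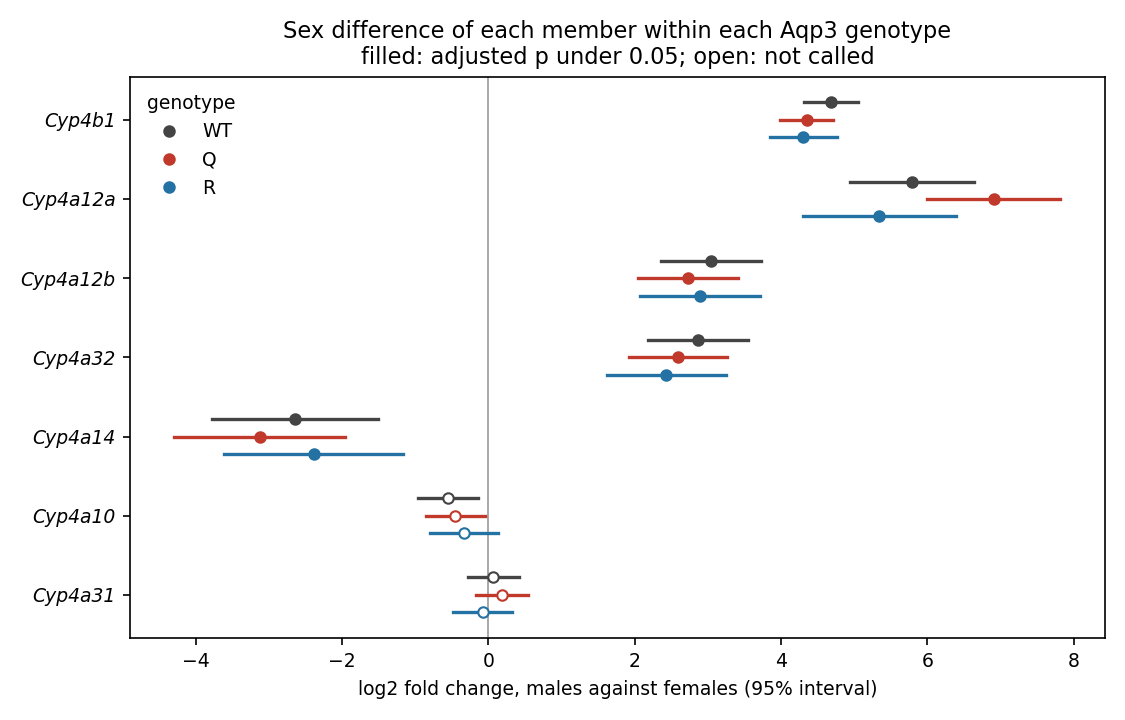
Log2 fold change of males against females for each member within WT, Q and R, with 95% intervals from the edgeR model; filled points passed the adjusted p threshold of 0.05 and open points did not. The 3 genotypes give the same side for each of the 5 members called in all of them, from 6.91 for Cyp4a12a in Q to -3.12 for Cyp4a14 in Q.

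The members therefore had a different make-up in the 2 sexes. The scale was CPM per kb of exons (the length covered by all annotated exons of a gene). It does not correct for reads left out because they match several genes, so shares of the near-identical copies may be too low. The exon lengths and the counts also came from different annotations. On this scale Cyp4b1 made up 80.6% ± 4.12 (SD, n = 15) of the summed level of the 7 members in males. In females it made up 12.0% ± 2.95 (SD, n = 13). Cyp4a10 made up 8.89% in males and 37.7% in females, and Cyp4a14 1.66% and 33.8%. Cyp4a31 made up 5.40% and 16.1%. Cyp4a12a, the member with the largest ratio between the sexes, made up 2.88% in males and 0.139% in females. The summed level of the 7 members was 1892 ± 199 CPM per kb in males and 590.1 ± 89.9 in females, and without Cyp4b1 the order turned, with 367 ± 88.8 for the 6 Cyp4a members in males and 520.3 ± 86.6 in females. These sums and shares are descriptions, with no test.

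**Figure D3:**
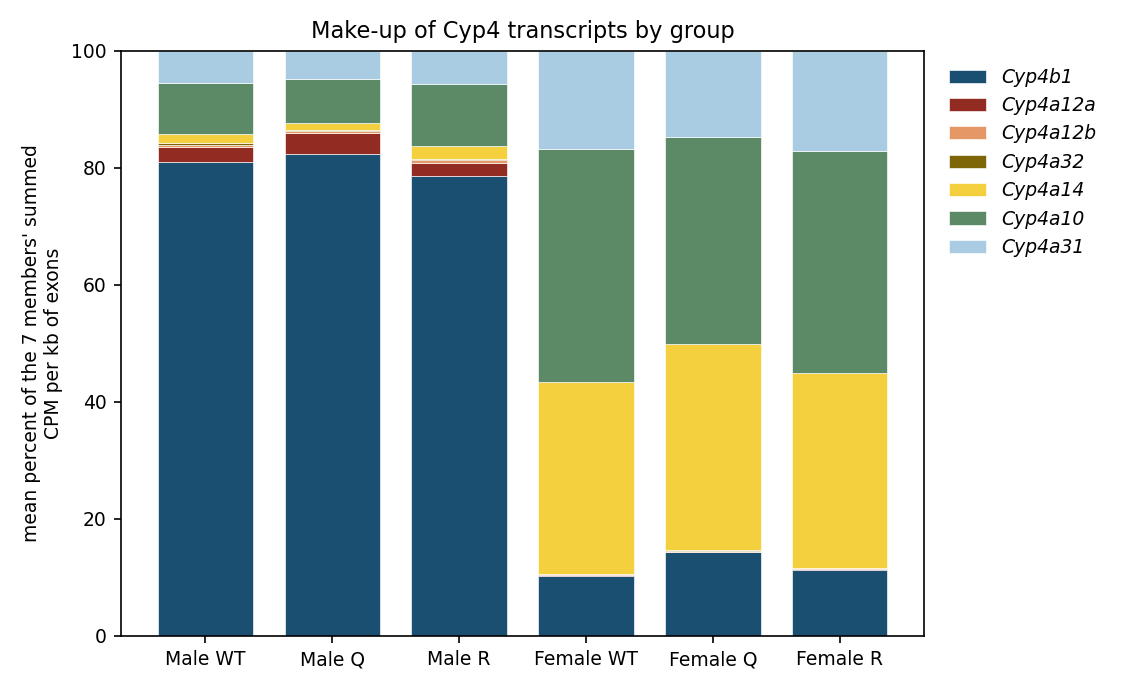
Mean share of each member in the summed CPM per kb of exons of the 7 members, as stacked bars from 0 to 100% for the 6 groups. Cyp4b1 fills most of each male bar, and Cyp4a10, Cyp4a14 and Cyp4a31 fill most of each female bar.

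The study's own question was what the Aqp3 forms change, and none of the 7 members was called between genotypes. In the 6 contrasts of Q, R and WT within a sex, 0 of 7 members and 0% of the 17573 tested genes had an adjusted p under 0.05 by edgeR. At an unadjusted p under 0.05 there were 897, 375 and 721 genes in males (Q against WT, R against WT and Q against R), or 5.1%, 2.13% and 4.1% of those tested. In females there were 516, 338 and 532, or 2.94%, 1.92% and 3.03%. No member was called in the 6 contrasts by DESeq2 or limma-voom either. The members' log2 fold changes ranged from -0.93 to 0.61 in males, and the female range was -0.95 to 0.35.

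Among the 7 members in the 6 contrasts, 3 values had an unadjusted p under 0.05. In a contrast, 1.92% to 5.1% of all tested genes had such a p. Cyp4a10 was lower in male Q than in male R, at 299.9 ± 93.1 against 420.0 ± 113 CPM (SD, n = 5 each), with a log2 fold change of -0.49 (SE 0.196, adjusted p = 1.0, edgeR), and -0.40 without the 3 libraries that stood apart. Cyp4b1 was 173 ± 20.5 CPM in female Q and 135 ± 39.2 CPM in female WT (SD, n = 5 each), with a log2 fold change of 0.35 (SE 0.155, adjusted p = 1.0, edgeR). It was 0.54 without female WT replicate 2, which had 201.9 CPM against 97.1 to 128 CPM in the other female WT libraries, and 0.55 without the 3 libraries. Cyp4a31 was 205 ± 61.8 CPM in female Q (SD, n = 5) and 285 ± 47.5 CPM in female R (SD, n = 3), with a log2 fold change of -0.47 (SE 0.193, adjusted p = 1.0, edgeR), and -0.32 without female Q replicate 5 and without the 3 libraries. The ranges of the groups compared overlapped in all 3 cases, for Cyp4b1 through female WT replicate 2 alone, and none of these differences held after adjustment.

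In each member's order of the 6 group means, neighbouring groups had overlapping ranges, except at the step from males to females for Cyp4b1, Cyp4a12a, Cyp4a12b, Cyp4a32 and Cyp4a14. The intervals show what these groups could have missed. For Cyp4b1 in males, the 95% intervals of Q and of R against WT ran from -0.30 to 0.33 and from -0.39 to 0.25. For Cyp4a14 in males they ran from -1.56 to 0.62 and from -0.63 to 1.54, so log2 changes of more than 1 in size were within them. For Cyp4a12a in females, which rests on few counts, Q against WT ran from -1.73 to 0.25.

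The sex difference itself was compared between genotypes by an interaction term. None of the 7 members and 0% of tested genes passed in either contrast by edgeR. At an unadjusted p under 0.05 there were 547 genes for Q (3.11% of those tested) and 495 for R (2.82%). The member with the smallest p was Cyp4a12a, whose sex difference was 1.12 larger in Q than in WT on the log2 scale (SE 0.571, adjusted p = 1.0, edgeR). It was 0.68 without the 3 libraries that stood apart, of which female WT replicate 2 had the most Cyp4a12a of all female libraries.

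**Figure D4:**
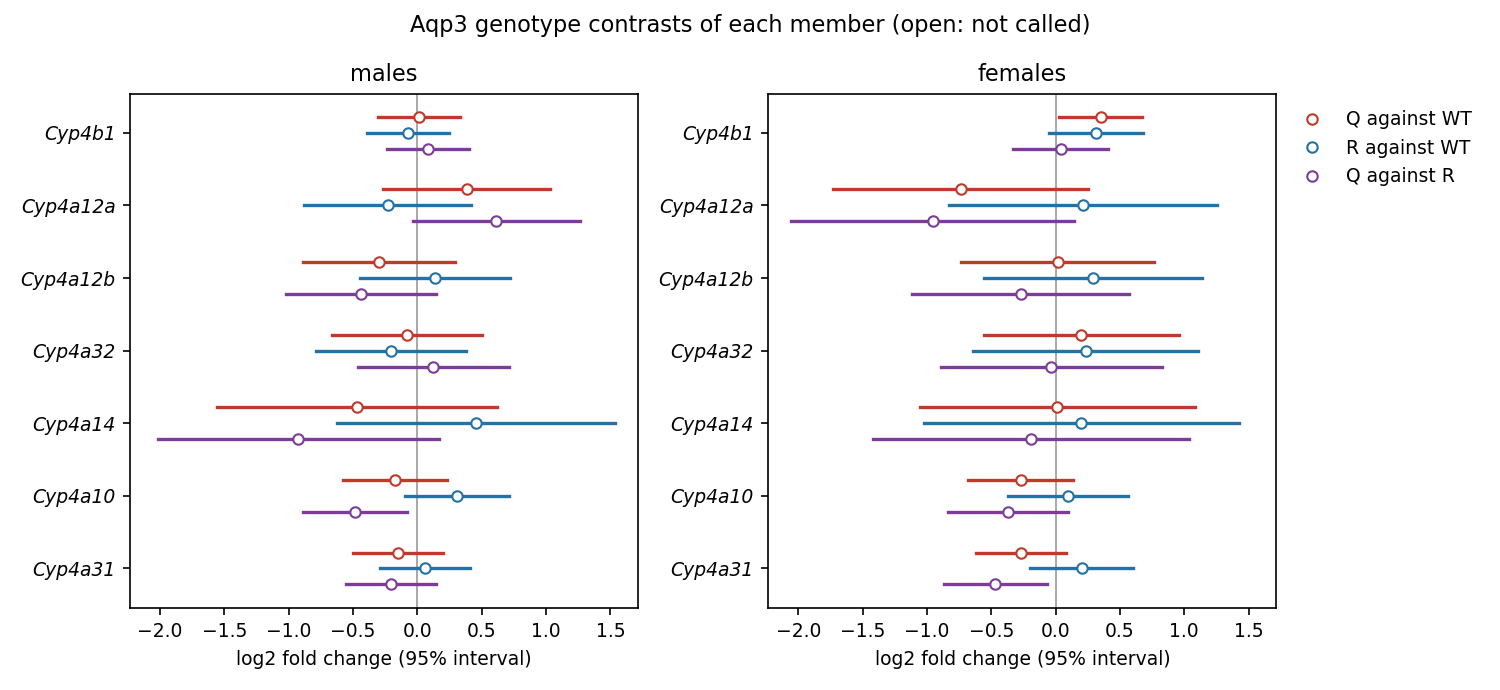
Log2 fold changes of each member for Q against WT, R against WT and Q against R in males (left) and females (right), with 95% intervals from the edgeR model; every point is open because none passed the adjusted p threshold. The widest intervals belong to Cyp4a14 in both sexes and to Cyp4a12a in females.

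Apart from the groups, some members varied together from library to library. Deviations of log2 CPM from the group means were correlated for the 21 pairs of members within each sex, 42 relations in all, with two-sided permutation p-values drawn within groups and adjusted over the 42. In the 15 male libraries, Cyp4a10 and Cyp4a14 had a Pearson r of 0.97 (adjusted p = 0.00084) and a Spearman rho of 0.96 (adjusted p = 0.0013), and r was 0.95 without male Q replicate 1 and male WT replicate 2, the 2 libraries farthest from the median. The lowest and highest males of Cyp4a14 were also among the lowest and highest of Cyp4a10. These genes shared no stretch of 50 bases in their transcripts. In the 13 female libraries the same pair had r = 0.40 (adjusted p = 0.44) and rho = 0.38 (adjusted p = 0.43); the difference between the sexes in this relation was not tested.

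Other relations among the members were weaker or lie between copies. In males Cyp4a10 and Cyp4a31 had r = 0.79 (adjusted p = 0.018) and rho = 0.86 (adjusted p = 0.0015), and in females r = 0.89 (adjusted p = 0.0084) and rho = 0.72 (adjusted p = 0.043). These are near-identical copies, and the part of their shared stretches in this relation was not tested. Cyp4a14 and Cyp4a31 in males had r = 0.71 (adjusted p = 0.057) and rho = 0.88 (adjusted p = 0.0015). Cyp4a12b in males had r = 0.80 with Cyp4a10 (adjusted p = 0.023) and r = 0.83 with Cyp4a14 (adjusted p = 0.018), with rho of 0.60 and 0.63 (adjusted p = 0.12 for both), and r fell to 0.58 and 0.65 without the same 2 libraries, so these relations rest in part on them. Cyp4a12a, the male-biased near-copy, had in males r = -0.13 with Cyp4a10 (adjusted p = 0.85, rho = -0.19, adjusted p = 0.71) and r = -0.11 with Cyp4a14 (adjusted p = 0.85, rho = -0.19, adjusted p = 0.72). In females Cyp4a12b had r = 0.63 with Cyp4a10 (adjusted p = 0.152, rho = 0.65, adjusted p = 0.151) and r = 0.72 with Cyp4a14 (adjusted p = 0.0887, rho = 0.71, adjusted p = 0.122). The copies Cyp4a10 and Cyp4a32 had r = 0.76 in females (adjusted p = 0.0495, rho = 0.65, adjusted p = 0.0769).

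The genes whose pattern was most like each member's were taken over the 28 libraries, as a description with no p. By log2 CPM, Cyp4b1 was closest to Slc7a13 (r = 0.99), an amino acid transporter of the last proximal tubule segment, and to Cyp2j13 and Osbp2. Cyp4a12a was closest to Osbp2, Fmo5 and Cyp2j13 (r = 0.98 each), Cyp4a12b to Nat8f2, Cyp7b1 and Cyp2j13, and Cyp4a32 to BC035947, with Erc2 also among its closest. Cyp4a14 was closest to Mgat4a, Pcolce2 and Mal (r = 0.92, 0.91 and 0.91). These correlations run over both sexes and so mainly carry the sex difference. Cyp2j13, an epoxygenase-family P450, had 307 ± 54.9 CPM in males and 1.47 ± 0.418 CPM in females, and Slc7a13 1141 ± 112 and 5.44 ± 1.35 CPM (SD, n = 15 and 13).

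Among the genes closest to Cyp4a10 were Acot1 (r = 0.84), an acyl-CoA thioesterase, and Nfe2l2 (r = 0.81), a regulator of the response to oxidants. Cyp4a31 was closest to Zkscan3, Polr1a and Acadvl (r = 0.85, 0.84 and 0.84).

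With the group means taken out, Acot1 was the gene closest to Cyp4a12b (r = 0.77) and was among the genes closest to Cyp4a14 (r = 0.69). In males, Acot1 was at 139 CPM in WT replicate 2, 127 CPM in Q replicate 1 and 161 CPM in R replicate 4, the libraries with the most Cyp4a14 of their groups, and at 67.8 to 97.5 CPM in the other 4 male Q libraries. Within males alone, the deviations of Acot1 had r = 0.85 with Cyp4a10, 0.81 with Cyp4a14, 0.78 with Cyp4a12b, 0.72 with Cyp4a31, 0.37 with Cyp4a32, 0.24 with Cyp4b1 and 0.10 with Cyp4a12a (n = 15). In females they had r = 0.42 with Cyp4a10, 0.41 with Cyp4a14, 0.77 with Cyp4a12b, 0.07 with Cyp4a31, 0.15 with Cyp4a32, 0.65 with Cyp4b1 and 0.41 with Cyp4a12a (n = 13), where female WT replicate 2 had the most Acot1, 172 CPM against 107.2 to 158.7 CPM in the others. By the same measure Cyp4a12a was closest to Mthfd1l and Cyp2d9 (r = 0.74 and 0.73), Cyp4b1 to Arhgap15 (r = 0.71), Cyp4a31 to Vwa8 (r = 0.90) and Cyp4a32 to Epc2 (r = 0.84).

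Of the 29 tested PPAR-alpha target genes on a list of 30, 10 had a deviation correlation above 0.5 with Cyp4a10 (34.5%, against 2.46% of all other tested genes), 9 with Cyp4a12b (31.0% against 0.615%) and 5 with Cyp4a14 (17.2% against 1.04%). With Cyp4a12a and with Cyp4b1 it was 0, where only 0.569% and 0.763% of all other tested genes passed 0.5. Some list genes went the other way, with a lowest r of -0.47 with Cyp4a10, -0.40 with Cyp4a12b and -0.51 with Cyp4a14. Those above 0.5 with Cyp4a14 included Acot1, Vnn1, Acadl and Pdk4, at r = 0.69, 0.59, 0.57 and 0.56. For Cyp4a31 and Cyp4a32 the shares were 27.6% and 20.7%, but 13.8% and 14.2% of all tested genes also passed 0.5 with them. These correlations run over all 28 libraries of both sexes, and no shares are given for each sex alone. Deviations were larger in males for Cyp4a10 (within-group SD 0.40 against 0.23 in females) and Cyp4a14 (1.05 against 0.31). A few male libraries may therefore weigh heavily in their shares. The libraries also share depth and RNA quality, whose part was not tested.

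**Figure D5:**
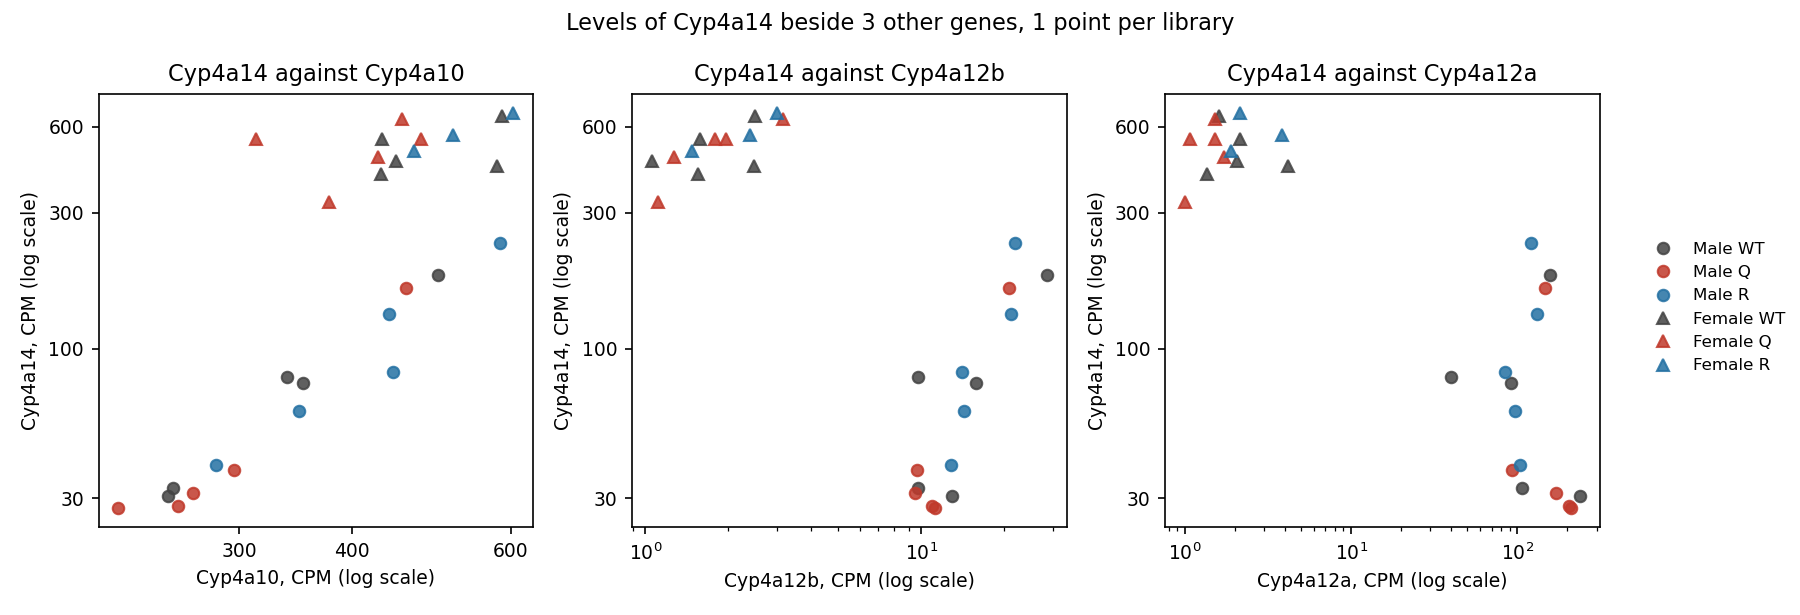
Level of Cyp4a14 (vertical axis, CPM, log scale) against Cyp4a10, Cyp4a12b and Cyp4a12a (horizontal axes, CPM, log scale), with 1 point per library, circles for males, triangles for females and colours for genotype. Male libraries climb together for Cyp4a14 with Cyp4a10 and with Cyp4a12b, where r of the deviations was 0.97 and 0.83, and not with Cyp4a12a, where it was -0.11.

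The pathway around the members was read from lists of related genes, each counted in the sex contrast over the 3 genotypes beside the 18.9% of all tested genes called higher and 21.3% called lower in males. Of the other Cyp4 genes, 7 of 13 were tested, 2 were called higher and 3 lower in males: Cyp4f15 (log2 fold change 1.73) and Cyp4f13 (0.19) were higher, and Cyp4f14 (-1.80), Cyp4v3 (-0.60) and Cyp4f16 (-0.32) lower. The highest mean level among them was 45.3 CPM (Cyp4f13 in males). All 4 electron donors of P450s were called higher in males, with Cyb5a at 1031 ± 195 against 429 ± 32.1 CPM (log2 fold change 1.26), Cyb5r3 at 0.87, Cyb5b at 0.46 and Por, the reductase itself, at 0.22.

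Enzymes that act after omega-hydroxylation were counted next. Of 13 genes for the oxidation of omega-hydroxy and dicarboxylic acids, 8 were called higher and 0 lower in males, with a median log2 fold change of 0.22 against -0.04 over all tested genes. Among them were the alcohol dehydrogenases Adh1 (2.25) and Adh7 (2.72), the fatty aldehyde dehydrogenase Aldh3a2 (0.99) and the very long chain acyl-CoA synthetase Slc27a2 (0.44). Adh7 was scarce, at 3.50 CPM in males and 0.576 in females. Of 16 tested genes of arachidonic acid metabolism, 5 were called higher and 6 lower, led by Cyp2j13 (7.69), the soluble epoxide hydrolase Ephx2 (1.6), the prostaglandin dehydrogenase Hpgd (-1.15) and Cyp2j5 (0.70).

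The lists of PPAR-alpha targets and of known regulators of these genes were mixed. Of 29 PPAR-alpha targets, 6 were called higher and 11 lower in males, with a median of -0.15; among those with the smallest p were Acot3 (-1.91), Cd36 (1.87) and Acsl1 (-1.10). Of 8 PPAR receptors and partners, 2 were called higher and 1 lower, and Ppara itself was not called (-0.19, adjusted p = 0.44, edgeR). Of 12 genes of sex steroid, growth hormone and prolactin signalling, 5 were called higher and 3 lower, with the prolactin receptor Prlr at -3.42, the steroid 5-alpha reductases Srd5a1 at 1.14 and Srd5a2 at 1.23 and the oestrogen receptor Esr1 at 1.11. In every genotype contrast and both interaction contrasts, 0 genes of each of these lists were called by edgeR.

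Few genes beside the cluster were called. Of 15 tested neighbours on chromosome 4, 1 was called higher (Faah, 0.39) and 1 lower (Tspan1, -0.24), with a median of 0.02.

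The promoters of Cyp4a32 and Cyp4b1, 2 members that were higher in males, were in the RefSeq promoter table (GRCm38.p6) and are shown from 250 bases before the start to the last base before it, 5′ to 3′ along the gene. They lie at chr4:115600688-115600937 on the plus strand (Cyp4a32) and chr4:115647722-115647971 on the minus strand (Cyp4b1). Capitals mark letters that match AGAACA, the half-site of the glucocorticoid receptor and its relatives, on the opposite strand (TGTTCT), or TTCNNNGAA, the STAT5 motif.
Cyp4a32: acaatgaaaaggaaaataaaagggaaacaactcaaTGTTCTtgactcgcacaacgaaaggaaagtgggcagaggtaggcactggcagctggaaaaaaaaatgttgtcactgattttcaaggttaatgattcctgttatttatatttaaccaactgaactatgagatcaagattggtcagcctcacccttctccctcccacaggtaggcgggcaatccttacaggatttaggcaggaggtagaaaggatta
Cyp4b1: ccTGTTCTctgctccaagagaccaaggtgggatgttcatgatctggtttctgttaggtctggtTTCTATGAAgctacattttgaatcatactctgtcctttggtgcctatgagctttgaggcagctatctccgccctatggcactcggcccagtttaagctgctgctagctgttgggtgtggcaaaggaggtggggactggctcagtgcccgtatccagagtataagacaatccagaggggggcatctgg
AGAACA was found once in each, and in 16.1% of the 32851 promoters of the table on either strand. TTCNNNGAA was found in Cyp4b1 and in 7.02% of all promoters. The element of PPAR and RXR, a direct repeat of the nuclear receptor half-site with 1 base between, was in neither, and its exact and looser forms were in 0.0335% and 0.338% of all promoters. A match describes the letters in these windows, not a bound site, and the other 5 members were not searched.

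Markers of other cells were read beside these results, since the members are mainly genes of the proximal tubule. The summed level of 8 markers of the first 2 proximal tubule segments ran from 9466 to 11835 CPM in males and from 7193 to 10331 in females, with 2 called higher and 4 lower in males. That of 7 markers of the last segment ran from 2818 to 4383 in males and from 2882 to 3997 in females, with 3 higher and 3 lower. Markers of other nephron segments summed to 4087 to 6266 CPM in males and 5619 to 7904 in females, with 9 of 10 called lower in males by 0.37 to 0.60 on the log2 scale. Endothelial markers (0 higher and 2 lower of 7), immune markers (0 and 2 of 7), stromal markers (0 and 4 of 6), urothelial markers (0 and 1 of 9) and adipocyte markers (0 and 0 of 9) were counted the same way. Adipocyte markers summed to 35.0 to 248 CPM in males and 48.6 to 275 in females, urothelial markers to 21.4 to 62.1 and 26.3 to 63.2, and adrenal cortex markers, 1 of 5 tested, to 1.99 to 3.98 and 2.52 to 3.96. Endothelial markers summed to 399 to 525 CPM in males and 484 to 615 in females, immune markers to 48.9 to 103 and 55.6 to 129, and stromal markers to 101 to 141 and 111 to 163. The part of these markers in the members' values was not tested. Slc7a13, Aadat (-2.25) and Atp11a (1.80), all markers of the last segment, moved in both directions. The summed ranges of that segment therefore join opposite sex differences, with Slc7a13 far higher in males.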

How the data were processed

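Kidney RNA of 28 libraries in 6 groups of Aqp3 genotype and sex had been selected for polyadenylated RNA and sequenced, per the labels. The values were raw fragment counts per gene as the authors deposited them, made with featureCounts from Subread 2.0.1 on Ensembl 107 genes of GRCm39, per the file headers, with neither a strand nor a multi-mapping option; reads with several positions are left out by that tool's default, which lowers the counts of near-identical genes. Trim Galore 0.6.7 and SAMtools 1.6 also appear in the submitters' processing notes, which name DESeq2 as well (1.38.3). The tool used for alignment is not given in the sources used here.

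All 28 libraries were fitted in 1 model with a mean per group by edgeR 4.0.16 (TMM scaling, filterByExpr, robust quasi-likelihood test), and p-values were adjusted by Benjamini-Hochberg over 17573 genes, which held 99.9% of counts. SEs came from the F statistic and 95% intervals from 22 residual degrees of freedom. The length for CPM per kb was that covered by all exons of a gene in GENCODE M21, and sequences of members were compared on 1 transcript each. The alternatives were another scaling, DESeq2 1.42.0, limma 3.58.1 with voom and quality weights, no filter, only the groups compared, a replicate block, the library code as a covariate, summed copies, and left-out libraries. The fit was also run on counts simulated from mean levels over all libraries, with changes seeded in male WT alone. These settings differ from the data, where the sexes differed in many genes, and the outcome is not reported here. The members and gene lists were chosen with earlier results of these data known; all 7 members are named, with up to 4 genes a list by smallest p and the 3 genes most like each member by each of 2 measures, and genes beyond these (Ppara, Cyp4f13, Vnn1, Acadl and the libraries' Xist) were named after their values were seen. Some genes that this rule selects are not reported here.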

Additional observations from a re-analysis of the deposited data

Results flagged for a closer look

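Within the 35 combinations of a member and a group of 5 libraries, 5 held a library whose gap to the nearest other exceeded 0.71 of the group's range; chance gives such a gap in about 1 in 20 groups, and the group of 3 female R libraries was not examined. Male Q replicate 1 had 164 CPM of Cyp4a14, against 27.8 to 37.6 CPM in the other 4 male Q libraries, and 20.8 CPM of Cyp4a12b, against 9.53 to 11.2 CPM. The same library had the most Cyp4a10 (459 CPM) and Acot1 (127 CPM) of its group, while its Cyp4a12a (147 CPM) lay inside the range of the others.

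Cyp4b1 was lowest in male Q replicate 4, at 2916 CPM against 3561 to 3739 CPM in the others; this library also had the lowest share of mitochondrial counts among males, 7.74%, whose part was not tested. In male R, replicate 5 had 2838 CPM of Cyp4b1 against 3400 to 3533 CPM in the others.

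Female WT replicate 2 had 4.17 CPM of Cyp4a12a, against 1.35 to 2.14 CPM in the other female WT libraries. It also had 201.9 CPM of Cyp4b1, the highest of all female libraries, and was the female library with almost no Xist; the part of that difference was not tested.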

How the results depend on the processing

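The 4 members higher and Cyp4a14 lower in males kept their direction and passed in WT, Q, R and over the 3 genotypes under each alternative run that kept them as separate genes. Leaving out 1 library at a time gave 5 to 6 members called in WT and in Q, 5 in R and 6 over the 3 genotypes. With near-identical copies summed, which leaves 4 rows and none for Cyp4a12b or Cyp4a32 alone, 3 were called in WT, in Q, in R and over the 3 genotypes. The row not called was the sum of Cyp4a10, Cyp4a31 and Cyp4a32, at -0.29, -0.19, -0.23 and -0.24. Cyp4a10 was called in WT by DESeq2 (-0.54, adjusted p = 0.041) and limma-voom (-0.56, adjusted p = 0.025) and in Q by limma-voom (-0.52, adjusted p = 0.046). The replicate block gave 6 members over the 3 genotypes (Cyp4a12a 5.98, Cyp4b1 4.46) and changed no call of a member. Same-numbered libraries deviated with a median r of 0.01 (65 pairs, 5 above 0.1), and those of different number with -0.0024 (260 pairs, 31 above 0.1). These values show no pairing by number but cannot exclude one. Among the 53 pairs of libraries within a group, none repeated the same counts, with a chi-square per degree of freedom of 6.92 or more. Pairs across groups were not examined, and the check cannot tell separate preparations of the same kidney from different animals.

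No genotype or interaction value of a member was called under any alternative, and small ones changed sign. Cyp4a32 in male Q against WT was 0.11 without both libraries low in mitochondrial counts, 0.11 without the 3 libraries that stood apart (chosen after seeing the data) and 0.095 by limma-voom, and in female Q against R 0.14, 0.14 and 0.29. Cyp4a14 in female Q against WT was -0.014 and -0.060 without those libraries, and Cyp4a12a in female R against WT was -0.011 with the library code. Leaving out 1 library at a time, Cyp4a31 between the sexes in R ran from -0.16 to 0.072. In males, Q against WT ran for Cyp4a10 from -0.38 to 0.0042, Cyp4a12b -0.56 to 0.052, Cyp4a14 -1.36 to 0.078, Cyp4a32 -0.24 to 0.14 and Cyp4b1 -0.082 to 0.080. In males, R against WT ran for Cyp4a12a from -0.46 to 0.13, Cyp4a14 -0.020 to 1.004, Cyp4a31 -0.038 to 0.17 and Cyp4a32 -0.32 to 0.017, and Q against R for Cyp4a32 from -0.037 to 0.31. In females, Q against WT ran for Cyp4a12b from -0.26 to 0.16 and Cyp4a14 -0.082 to 0.14, R against WT for Cyp4a10 from -0.0059 to 0.18, Cyp4a12a -0.18 to 0.58 and Cyp4a32 -0.074 to 0.40, and Q against R for Cyp4a32 from -0.20 to 0.28 and Cyp4b1 -0.15 to 0.15. The sex difference in Q against WT ran for Cyp4a10 from -0.11 to 0.28, Cyp4a12b -0.58 to 0.035, Cyp4a14 -1.37 to 0.066 and Cyp4a31 -0.035 to 0.22, and in R for Cyp4a12b from -0.39 to 0.20, Cyp4a14 -0.22 to 0.80 and Cyp4a31 -0.24 to 0.00029.

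Over all genes, limma-voom called 4623 between the sexes in WT and 4972 in R, against 2906 and 2474 by edgeR. A fit of only the groups compared called 2240 in Q, against 4060. In R, leaving out both libraries low in mitochondrial counts gave 4171, leaving out the 3 libraries that stood apart 4192, and leaving out female R replicate 1 or 2 gave 1608 or 1613. For Q against WT in males, DESeq2 called 2 genes and the replicate block 1, and for Q against R in males DESeq2 called 1, limma-voom 2 and the fit with no filter 1, against 0 by edgeR. Without male Q replicate 5 edgeR called 2 genes in each of these contrasts, and it called 1 without male WT replicate 1 (Q against WT) or male R replicate 4 (Q against R); none of these genes was a member. The cause of these shifts was not tested.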
